A study of Mus musculus with 6 samples.

Results

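The 42 genes described here encode the machinery that copies DNA and the enzymes that supply its building blocks: the MCM helicase, its loaders, the replicative polymerases, the sliding clamp and its loader, replication protein A (RPA), the joining of Okazaki fragments, deoxynucleotide synthesis and the copying of chromatin and DNA methylation. They were taken by exact gene name from the 27763 gene rows of a poly(A) RNA-seq table, and each name matched 1 row. The libraries hold RNA of splenic natural killer (NK) cells from wild-type C57BL/6 mice aged 6 weeks. The study asks about an immature NK subset in the spleen and how T-bet takes part in maturation. There are 2 groups with 3 libraries each, cNK and DN NK, which share strain, genotype, age and organ, and no treatment is named for either. The labels do not give the surface markers that separate the groups. Separate mice for each library are not stated either, so p-values here rest on the spread among the libraries at hand, which may be technical.

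A cell copies its genome once per division. In G1, the origin recognition complex, Cdc6 and Cdt1 load the MCM ring onto origins, and in S phase Cdc45 and the GINS complex turn the ring into a working helicase. Polymerase alpha with primase starts each strand, polymerases delta and epsilon extend it on the clamp PCNA, RPA covers the single strands, and ribonucleotide reductase makes the deoxynucleotides. Many of these genes are transcribed as targets of E2F factors as cells enter the cycle, and in NK cells proliferation is known to be most active at immature stages and after cytokine stimulation.

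Most of the replication genes that differed between the groups were lower in DN NK. Of the 42, 41 reached the minimum level for testing (1 FPKM or more in 3 or more of the 6 libraries, FPKM being a fragment count corrected for transcript length and sequencing depth), and Mcm10 did not. In edgeR's quasi-likelihood test on the deposited counts, 23 were lower in DN NK at a Benjamini-Hochberg adjusted p of 0.05 over all 11690 tested rows, 2 were higher (Cdt1 and Pcna) and 16 did not pass. In the same comparison 30.9% of all tested rows were called lower, 30.8% higher and 61.7% in either direction, so that a call alone is common here. Calls with a size of 1.5-fold or more numbered 9, of which 8 were downward and 1 upward; among all tested rows the shares were 29.1% in either direction, 13.2% downward and 15.9% upward. The 8 were Rrm2, Rpa1, Rpa3, Gins3, Gins4, Pole2, Rfc2 and Tyms. The median log2 fold change of the members (DN NK over cNK) was -0.26, beside -0.016 over all tested rows, and 32 point estimates lay below 0 and 9 above. Tyms passed the minimum level only through its cNK libraries, so it could be tested only because it was higher there. The counts of 23 lower and of 8 downward by 1.5-fold include it. In bulk RNA, fewer cells that express a gene and less of its RNA per cell cannot be told apart.

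**Figure D1:**
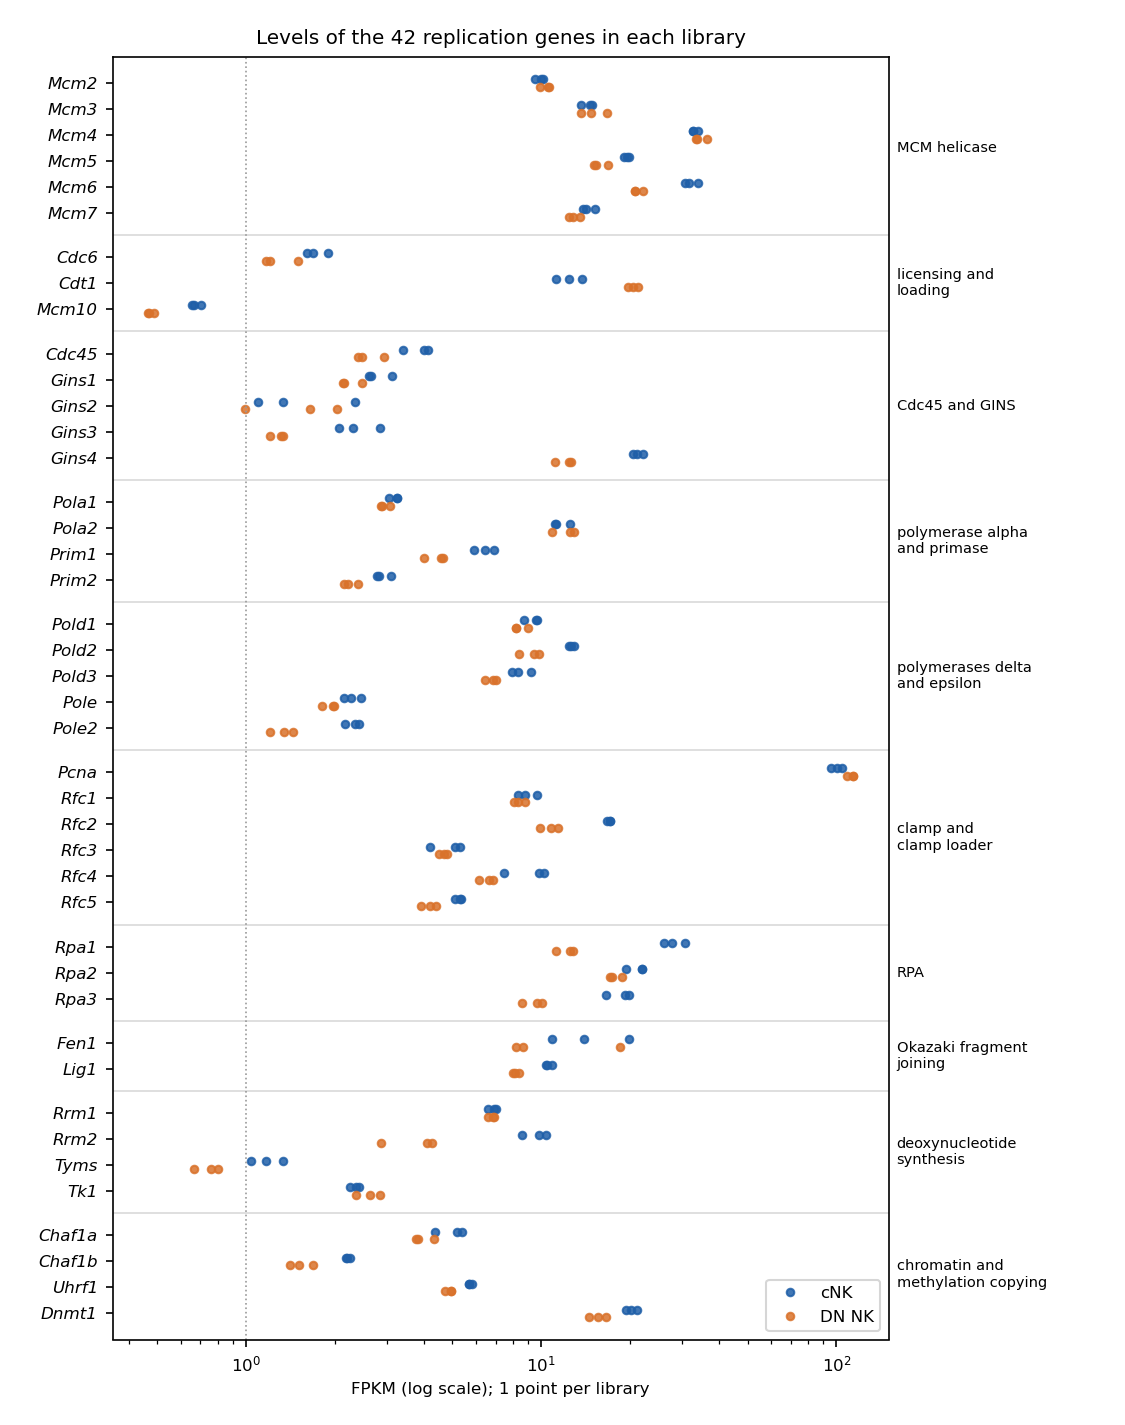
FPKM of each of the 42 genes on a log axis, with 1 point per library, cNK in blue and DN NK in orange, grouped by role; the dotted line marks 1 FPKM. Levels run from under 1 FPKM for Mcm10 to above 95 FPKM for Pcna in every library, and the 2 groups separate most widely for Rrm2, Rpa1 and Rpa3.

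The members together summed to 506, 532 and 524 FPKM in cNK replicates 1, 2 and 3 and to 431, 454 and 457 FPKM in DN NK replicates 1, 2 and 3. Every DN NK library was therefore below every cNK library, although the difference in this sum, which includes Pcna, is small. Pcna alone contributed between 95.7 and 114 FPKM per library and was higher in DN NK. Without Pcna the sums were 410, 432 and 420 FPKM in cNK and 322, 340 and 342 FPKM in DN NK. In counts, the members held 0.222 to 0.234% of a cNK library and 0.188 to 0.200% of a DN NK library. By mean level, 17 members reached 10 FPKM in cNK and 15 did in DN NK, and the median of the members' means was 9.05 FPKM in cNK and 6.79 FPKM in DN NK. The FPKM values of the groups did not overlap for 30 members, 28 lower in DN NK (Mcm10 among them) and 2 higher, while 39.3% of all tested rows were lower without overlap and 31% higher.

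Estimated counts per library ranged from 79798234 to 89526647, about 21166640 to 23747121 read pairs. Markers of several other cell types differed between the groups. Summed FPKM of 11 B cell markers was 2.94 to 3.39 in cNK and 41.3 to 55.2 in DN NK, all 11 being higher there without overlap. The sum of 13 T cell markers was 512 to 529 in cNK and 667 to 705 in DN NK, with 12 higher without overlap. Most of that sum was Trbc1 (means of 359 FPKM in cNK and 424 FPKM in DN NK) and Trbc2 (131 and 174 FPKM). Mean Cd3d was 4.54 FPKM in cNK and 38.5 FPKM in DN NK, Cd3g 3.39 and 17.3 FPKM and Cd4 0.0160 and 3.51 FPKM, while Cd8b1 overlapped. The sum of 4 plasma cell markers was 0.469 to 0.932 in cNK and 5.05 to 8.08 in DN NK, with 3 higher. That of 7 ILC2 or ILC3 markers was 0.0994 to 0.134 and 5.50 to 8.14, with 5 higher. In that last list Il17f and Il22 were listed at 0 in all cNK libraries and Il13 in all DN NK libraries. The 10 NK cell markers all reached a mean of 1 FPKM in both groups and summed to 8329 to 9015 in cNK and 3062 to 3560 in DN NK, with 9 lower. Erythroid markers (8) summed to 33.2 to 40.7 in cNK and 42.6 to 60.9 in DN NK, with 3 higher without overlap. Klf1 was at 0 in cNK and in DN NK replicates 2 and 3, and at 0.130 FPKM in DN NK replicate 1. Monocyte or macrophage markers (10) summed to 6.81 to 8.14 in cNK and 6.41 to 7.27 in DN NK. Of these, 2 were higher and 2 lower without overlap. Neutrophil markers (4) summed to 0 in cNK and 0.135 to 0.606 in DN NK, with 2 higher without overlap. The part of these markers' cells in the replication gene differences was not tested.

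**Figure D2:**
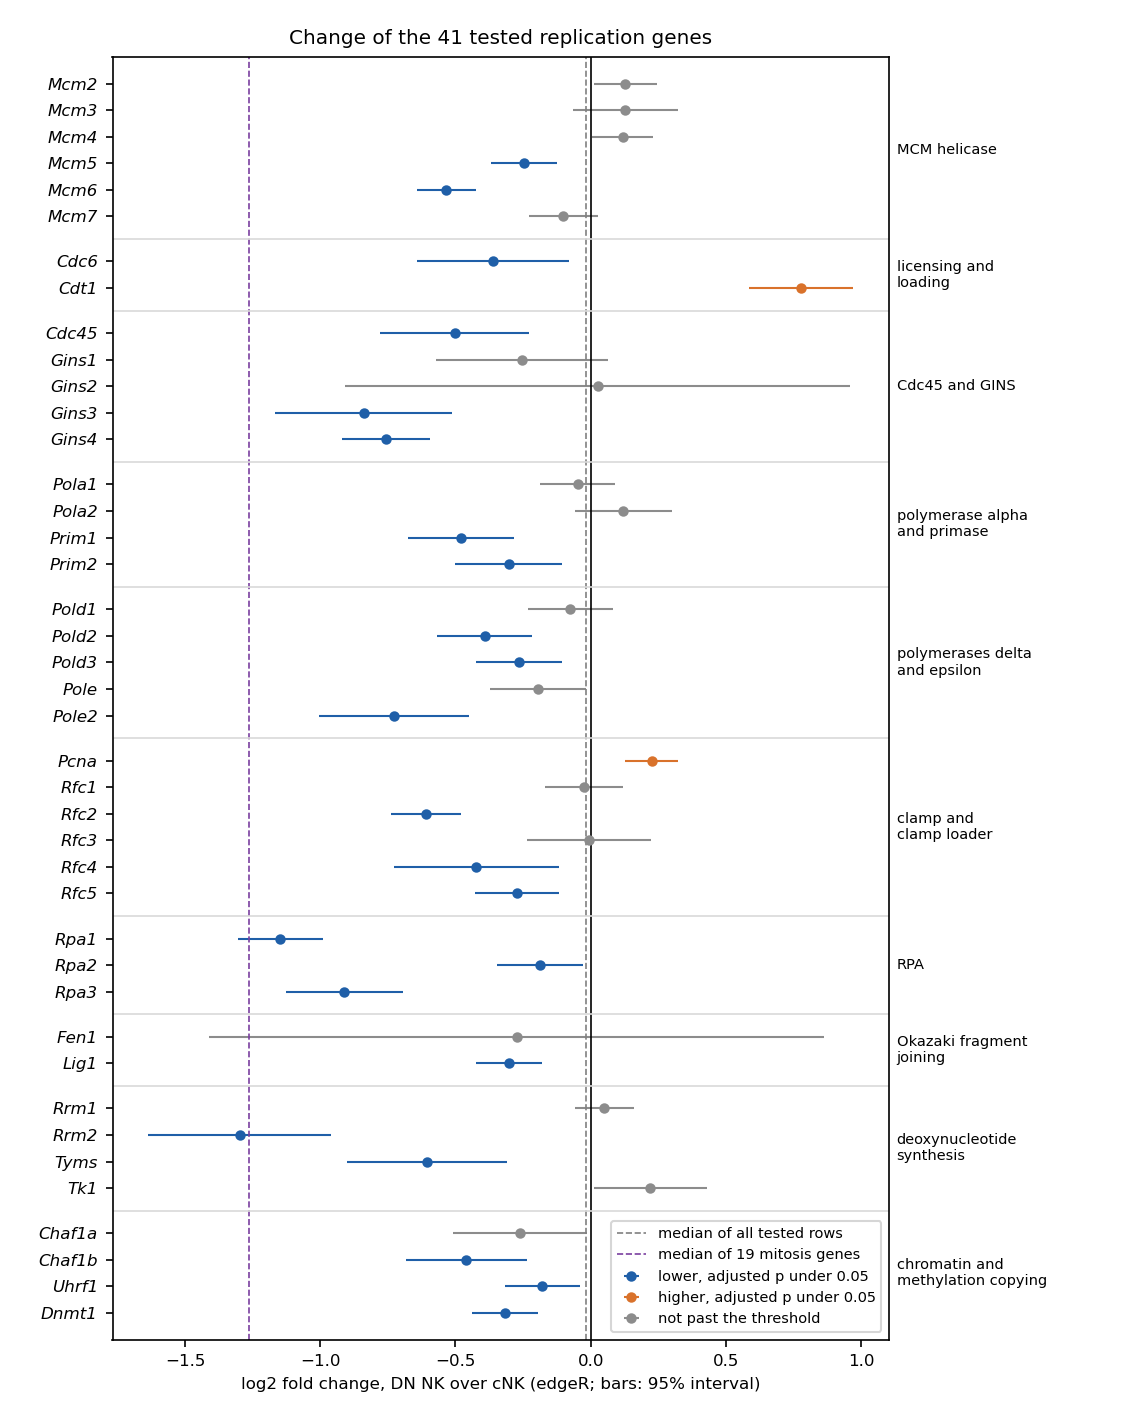
Log2 fold change (DN NK over cNK, edgeR) of the 41 tested genes with 95% intervals, coloured by call; the grey dashed line is the median of all tested rows and the purple one that of 19 mitosis genes. Most points lie left of 0 and right of the mitosis median of -1.26; Rrm2 alone has a point estimate beyond it.

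Promoter sequence was available from RefSeq (GRCm38.p6, the build of the deposited table, 250 bases before to 50 bases after each annotated start) for 35 members in 43 windows; 6 members have several. Gins1, Gins2, Gins4, Mcm4, Pole, Prim2 and Rfc2 had no matched window. The words TTTCCCGC, TTTGGCGC, TTTGCCGC and TTTCGCGC, forms of the E2F site, were searched on both strands, and matches may overlap. They occurred in 15 of the 43 member windows (34.9%), in 4.25% of 9934 windows of tested rows' genes and in 2.26% of all 32851 windows. Median GC content was 60% in the members' windows, 60.7% in those of tested rows' genes and 52.7% in all. CCAAT, the NF-Y word, was found in 58.1% of member windows, 37.8% of those of tested rows' genes and 37.4% of all. TTTGAA, one of the forms of the CHR element of late cell cycle promoters, was found in 14.0%, 12.3% and 17.9%. Among genes with a window, an E2F word was present for 9 of 20 that were lower in DN NK and for 5 of 12 that did not pass. Of the 2 higher genes, Cdt1 had such a word and Pcna had none in this window.

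The stretches below run 5′ to 3′ on the gene's strand from 170 bases before the annotated start, in lower case with the E2F words in capitals; they are examples, 3 genes with a match upstream of the start (Mcm6, Mcm5 and Pola1) and the 2 members with the largest decreases, Rpa1 and Rrm2, which have no match in their windows. Other members with a match that are not printed include Gins3 and Pole2, both also lower in DN NK by over 1.5-fold. They lie at chr1:128359706-128359875 (minus strand, Mcm6), chr8:75109339-75109508 (plus strand, Mcm5), chrX:93632156-93632325 (minus strand, Pola1), chr11:75348384-75348553 (minus strand, Rpa1) and chr12:24708084-24708240 (plus strand, Rrm2, ended where the GENCODE gene begins).
Mcm6: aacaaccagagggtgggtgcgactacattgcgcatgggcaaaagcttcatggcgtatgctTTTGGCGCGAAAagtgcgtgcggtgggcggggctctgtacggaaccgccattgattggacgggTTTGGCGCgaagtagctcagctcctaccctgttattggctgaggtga
Mcm5: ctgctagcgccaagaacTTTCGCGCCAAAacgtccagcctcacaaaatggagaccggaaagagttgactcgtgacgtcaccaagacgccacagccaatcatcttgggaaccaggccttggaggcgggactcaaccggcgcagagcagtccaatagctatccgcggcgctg
Pola1: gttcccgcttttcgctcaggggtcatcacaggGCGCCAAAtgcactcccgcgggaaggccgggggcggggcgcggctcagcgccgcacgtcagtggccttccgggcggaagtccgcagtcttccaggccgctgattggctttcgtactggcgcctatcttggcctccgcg
Rpa1: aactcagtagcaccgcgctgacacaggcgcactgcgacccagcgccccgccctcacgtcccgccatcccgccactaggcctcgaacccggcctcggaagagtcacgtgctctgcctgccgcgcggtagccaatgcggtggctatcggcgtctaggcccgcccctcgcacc
Rrm2: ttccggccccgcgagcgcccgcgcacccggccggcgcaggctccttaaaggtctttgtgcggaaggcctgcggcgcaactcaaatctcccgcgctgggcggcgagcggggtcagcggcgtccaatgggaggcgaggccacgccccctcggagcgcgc
In Mcm6 the words begin at -110, -106 and -47 from the start and in Mcm5 at -153 and -149, so that in each gene a pair overlaps on opposite strands. Pola1 holds a single match at -138. The part of these words in the differences between the groups was not tested. These matches are letters in a window and not measured sites.

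The 6 subunits of the MCM helicase split. Mcm6 was 20.8, 20.8 and 22.0 FPKM in DN NK replicates 1, 2 and 3 and 30.8, 33.8 and 31.6 FPKM in cNK replicates 1, 2 and 3. Every DN NK library was below every cNK library, with means of 21.2 ± 0.704 and 32.1 ± 1.59 FPKM (SD, n = 3 each). The log2 fold change was -0.53 (SE 0.05, edgeR adjusted p = 2.49e-05), or 1.45-fold lower. Mcm5 was also lower without overlap, at 15.1, 15.4 and 16.8 FPKM against 19.5, 19.8 and 18.996 FPKM, a log2 difference of -0.25 (SE 0.05, edgeR adjusted p = 0.00367). The other subunits did not pass. Mcm4, the most abundant of them, was 33.6, 33.6 and 36.3 FPKM in DN NK and 34.1, 32.6 and 32.7 FPKM in cNK, where the groups overlapped. Its log2 fold change of 0.12 had a 95% interval of 0.0057 to 0.23 and an edgeR adjusted p of 0.0649, which became 0.0327 without cNK replicate 1. Mcm2 had 0.13 (interval 0.012 to 0.25), Mcm3 had 0.13 (interval -0.066 to 0.32) and Mcm7 had -0.10 (interval -0.23 to 0.026). These intervals exclude, for Mcm2, Mcm3, Mcm4 and Mcm7, a decrease of the size seen in Mcm6. Mcm7 was nonetheless lower in DN NK without overlap, at 12.4, 12.8 and 13.5 FPKM against 14.1, 15.2 and 13.9 FPKM. It was called lower in 5 of 16 alternatives, so its result depends on scaling and filter. The median over the 6 subunits was 0.0088, and -0.076 with upper quartile scaling. Mcm7 shares 321 exonic bases with Ap4m1 on the other strand, and since the kit does not mark strand their reads cannot be told apart there.

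Among the licensing factors, which put the helicase on origins before S phase, Cdt1 ran opposite to the rest. It was 21.2, 20.5 and 19.7 FPKM in DN NK and 13.7, 12.4 and 11.2 FPKM in cNK. All DN NK libraries were above all cNK libraries, and the means were 20.5 ± 0.746 and 12.4 ± 1.22 FPKM (SD, n = 3 each). The log2 fold change of 0.78 (SE 0.08, edgeR adjusted p = 7.75e-05), 1.72-fold, was the largest increase of the 41 genes. Cdc6, the ATPase that loads MCM together with Cdt1, was low and went the other way, with 1.17, 1.20 and 1.49 FPKM in DN NK and 1.68, 1.89 and 1.603 FPKM in cNK. The groups did not overlap, but DN NK replicate 3 came close to cNK replicate 3. Its log2 fold change of -0.36 (SE 0.12, edgeR adjusted p = 0.0314) lost the call when cNK replicate 1 (adjusted p = 0.0588) or 2 (0.0966), or DN NK replicate 1 (0.0881) or 2 (0.0876), was left out. Mcm10, which helps to start the helicase, was 0.469, 0.464 and 0.489 FPKM in DN NK and 0.668, 0.654 and 0.7005 FPKM in cNK. It stayed below the minimum level, and its groups did not overlap. With all rows fitted and no minimum level, Mcm10 had a log2 fold change of -0.51 (SE 0.13, edgeR adjusted p = 0.00791).

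Cdc45 and the GINS complex complete the active helicase, and 3 of their 5 genes were lower in DN NK. Gins4 was 11.1, 12.6 and 12.4 FPKM in DN NK and 20.5, 22.1 and 21.1 FPKM in cNK, a wide gap between the groups. The means were 12.05 ± 0.808 and 21.2 ± 0.847 FPKM (SD, n = 3 each), the log2 fold change -0.76 (SE 0.07, edgeR adjusted p = 3.37e-05). Gins3 was at a much lower level, with 1.34, 1.31 and 1.21 FPKM against 2.07, 2.84 and 2.30 FPKM. This was a log2 difference of -0.84 (SE 0.14, edgeR adjusted p = 0.00105). Cdc45 was 2.47, 2.40 and 2.93 FPKM in DN NK and 3.39, 4.14 and 4.01 FPKM in cNK, again without overlap. Its log2 fold change was -0.50 (SE 0.12, edgeR adjusted p = 0.00646). Gins1 was 2.14, 2.13 and 2.46 FPKM against 3.12, 2.66 and 2.60 FPKM. Its groups did not overlap, yet its log2 fold change of -0.25 (interval -0.57 to 0.065, edgeR adjusted p = 0.144) did not pass. Gins2 scattered within each group, from 0.991 to 2.03 FPKM in DN NK and from 1.10 to 2.34 FPKM in cNK, and its log2 fold change of 0.027 had an interval of -0.91 to 0.96. Gins2 shares 2758 exonic bases with the opposite-strand gene Gse1, which was 22.5 to 24.4 FPKM in cNK and 27.2 to 27.7 FPKM in DN NK, so that its value is uncertain.

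In the polymerase alpha and primase complex, the primase genes were lower and the polymerase genes did not pass. Prim1, the catalytic primase subunit, was 4.58, 3.998 and 4.66 FPKM in DN NK and 5.92, 6.90 and 6.45 FPKM in cNK. The groups lay apart, with a log2 fold change of -0.48 (SE 0.09, edgeR adjusted p = 0.00141). Prim2, the large primase subunit, was 2.40, 2.14 and 2.21 FPKM against 2.82, 3.11 and 2.77 FPKM, with -0.30 (SE 0.09, edgeR adjusted p = 0.0146), and its adjusted p was 0.0540 without cNK replicate 2. Pola1, the catalytic polymerase subunit, had a log2 fold change of -0.048 (interval -0.19 to 0.092, edgeR adjusted p = 0.518). Pola2, the regulatory subunit, had 0.12 (interval -0.057 to 0.30, edgeR adjusted p = 0.204). Both intervals leave out a decrease as large as the estimate for Prim1.

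The catalytic subunits of polymerases delta and epsilon, Pold1 and Pole, did not pass (Pole narrowly), while 3 of their partner subunits were lower. Pole2, the second subunit of polymerase epsilon, was 1.44, 1.34 and 1.21 FPKM in DN NK and 2.17, 2.40 and 2.34 FPKM in cNK. Those groups were clearly separate, and the log2 fold change was -0.73 (SE 0.12, edgeR adjusted p = 0.000888). Pold2, the small subunit of polymerase delta, was 9.45, 8.41 and 9.81 FPKM against 12.6, 12.9 and 12.4 FPKM, a log2 difference of -0.39 (SE 0.08, edgeR adjusted p = 0.00229). Pold3, which joins delta to the clamp, had -0.26 (SE 0.07, edgeR adjusted p = 0.0102), from 6.78 ± 0.291 FPKM in DN NK and 8.50 ± 0.640 FPKM in cNK (SD, n = 3 each). Pold1 had -0.075 (interval -0.23 to 0.081, edgeR adjusted p = 0.363). Pole had -0.20 (interval -0.37 to -0.019, edgeR adjusted p = 0.0543) and passed without cNK replicate 3, at 0.0372. It was also called lower with upper quartile scaling, with no minimum level and with edgeR's default filter. The FPKM of its groups did not overlap, and its interval includes the estimate for Pold3, so a difference between those genes is not shown.

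Pcna, the ring that holds polymerases on DNA, was the most abundant member and rose slightly. It was 109, 114 and 114 FPKM in DN NK and 95.7, 101 and 105 FPKM in cNK. No cNK library reached the lowest DN NK library. The log2 fold change was 0.23 (SE 0.04, edgeR adjusted p = 0.00196), or 1.17-fold. Of the 5 subunits of replication factor C, which opens the ring and sets it on DNA, 3 fell. Rfc2 was 9.87, 10.8 and 11.4 FPKM in DN NK and 17.1, 17.1 and 16.7 FPKM in cNK, well below in every library, with a log2 fold change of -0.61 (SE 0.06, edgeR adjusted p = 3.12e-05). Rfc4 was 6.87, 6.16 and 6.63 FPKM against 10.2, 9.86 and 7.45 FPKM, so cNK replicate 3 lay nearest to DN NK. Its log2 fold change of -0.42 (SE 0.13, edgeR adjusted p = 0.0225) lost the call when cNK replicate 1 (0.0752) or 2 (0.0668), or DN NK replicate 2 (0.0647) or 3 (0.0510), was left out. Rfc5 had -0.27 (SE 0.07, edgeR adjusted p = 0.00778). Rfc1, the large subunit, and Rfc3 did not pass, with -0.025 (interval -0.17 to 0.12) and -0.0056 (interval -0.23 to 0.22). Rfc2 shares 952 exonic bases with Lat2 on the other strand, itself lower in DN NK (log2 fold change -0.65). Rfc4 shares 194 with Eif4a2, which was higher (0.45), and Rfc5 shares 499 with Wsb2, also higher (0.25). Reads in the shared bases cannot be assigned by strand.

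All 3 subunits of RPA, the protein that covers single-stranded DNA in replication and repair, were lower in DN NK, by different amounts. Rpa1, the large DNA-binding subunit (chr11:75298166-75348324, minus strand), was 11.2, 12.5 and 12.8 FPKM in DN NK and 26.0, 30.7 and 27.8 FPKM in cNK. Each cNK library held more than each DN NK library, and the means were 12.2 ± 0.877 and 28.2 ± 2.35 FPKM (SD, n = 3 each). The log2 fold change was -1.15 (SE 0.07, edgeR adjusted p = 3.49e-06), 2.21-fold. Rpa3, the small subunit, was 8.60, 10.04 and 9.70 FPKM in DN NK and 16.6, 19.2 and 19.8 FPKM in cNK. The groups were again far apart, with a log2 fold change of -0.91 (SE 0.09, edgeR adjusted p = 5.94e-05). Rpa2, the subunit phosphorylated by checkpoint kinases, was 17.1, 17.3 and 18.8 FPKM against 21.9, 19.3 and 21.9 FPKM. The groups nearly met at cNK replicate 2. Its log2 fold change of -0.19 (SE 0.07, edgeR adjusted p = 0.0420) lost the call when cNK replicate 1 (0.123) or 3 (0.120), or DN NK replicate 1 (0.0939) or 2 (0.104), was left out, and under median-ratio scaling (0.0504).

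Lig1 and Fen1 finish Okazaki fragments, the short pieces of the lagging strand. Lig1, the ligase, was 8.13, 8.42 and 8.04 FPKM in DN NK and 10.3, 10.9 and 10.4 FPKM in cNK. The libraries of each group lay close together and the groups did not overlap, with a log2 fold change of -0.30 (SE 0.05, edgeR adjusted p = 0.00120). Fen1, the flap nuclease, was 8.19, 18.5 and 8.69 FPKM against 10.9, 13.9 and 19.9 FPKM. DN NK replicate 2 and cNK replicate 3 were high in their groups, and the log2 fold change of -0.27 had an interval of -1.41 to 0.86 (edgeR adjusted p = 0.615). Without DN NK replicate 2 it was -0.76 (edgeR adjusted p = 0.0716), and without cNK replicate 3 it was -0.015. Fen1 shares 1909 exonic bases with Gm10143 on the other strand, which was 1.66, 1.52 and 3.22 FPKM in DN NK and 1.10, 4.45 and 0.580 FPKM in cNK. How reads were divided between these 2 genes is not given in the sources used here.

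Ribonucleotide reductase makes deoxynucleotides from ribonucleotides, and of its subunits among the members Rrm2 was lower and Rrm1 did not pass. Rrm2, the radical-bearing small subunit (chr12:24708241-24714146, plus strand), was 2.87, 4.09 and 4.27 FPKM in DN NK and 8.62, 10.4 and 9.82 FPKM in cNK. The highest DN NK library had less than the lowest cNK library by a wide margin, and the means were 3.74 ± 0.762 and 9.61 ± 0.900 FPKM (SD, n = 3 each). The log2 fold change was -1.30 (SE 0.15, edgeR adjusted p = 0.000134), or 2.46-fold, the largest decrease of the members. Rrm1, the large subunit, was 6.86, 6.60 and 6.93 FPKM in DN NK and 6.59, 6.92 and 7.04 FPKM in cNK. These groups overlapped completely, and the log2 fold change of 0.051 had an interval of -0.057 to 0.16. Tyms, the thymidylate synthase, was 0.667, 0.801 and 0.763 FPKM against 1.04, 1.17 and 1.33 FPKM. It was lower in each DN NK library, with a log2 fold change of -0.60 (SE 0.13, edgeR adjusted p = 0.00358). Tyms reached 1 FPKM in cNK libraries only and so could be tested only because it was higher there. Tk1, the thymidine kinase of the salvage route, was 2.64, 2.36 and 2.84 FPKM against 2.25, 2.35 and 2.41 FPKM. DN NK replicate 2 fell within the cNK range, and the log2 fold change of 0.22 (interval 0.011 to 0.43, edgeR adjusted p = 0.0642) passed without that library (0.0332). Tk1 shares 83 exonic bases with Afmid on the other strand. Afmid was 7.61, 2.72 and 7.58 FPKM in DN NK and 3.07, 3.03 and 3.04 FPKM in cNK, so DN NK replicate 2 was the lowest of its group for both genes. The part of shared reads in this was not tested.

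Of the 4 genes that copy chromatin and DNA methylation behind the fork, 3 were lower and Chaf1a did not pass. Dnmt1, the maintenance methyltransferase, was 14.5, 15.6 and 16.5 FPKM in DN NK and 19.3, 21.1 and 20.1 FPKM in cNK. The groups did not overlap, and the log2 fold change was -0.32 (SE 0.05, edgeR adjusted p = 0.000951). Chaf1b, a subunit of the histone chaperone CAF-1, was 1.51, 1.41 and 1.69 FPKM against 2.18, 2.24 and 2.19 FPKM, a log2 difference of -0.46 (SE 0.10, edgeR adjusted p = 0.00337). Its partner Chaf1a had -0.26 (interval -0.51 to -0.013, edgeR adjusted p = 0.0650), and passed without cNK replicate 2 (0.0178) or DN NK replicate 2 (0.0454). It was called lower in 7 of the 15 alternatives that tested it, including these. Its groups did not overlap, though DN NK replicate 2 (4.35 FPKM) nearly met cNK replicate 2 (4.36 FPKM). Chaf1a shares 4648 exonic bases with Ubxn6 on the other strand, so that the value of Chaf1a is uncertain. Ubxn6 was 7.67 to 9.52 FPKM in cNK and 8.14 to 8.84 FPKM in DN NK. Uhrf1, which brings Dnmt1 to hemimethylated DNA, had -0.18 (SE 0.06, edgeR adjusted p = 0.0297). That call was lost whichever library was left out, at adjusted p values from 0.0509 to 0.0705. The interval of Chaf1a includes the estimate for Uhrf1, so a difference between those genes is not shown.

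Since subunits of the same complex are compared within a library, their ratios do not depend on how libraries were scaled. The 9 ratios plotted were chosen after their values were seen and are given without a test. Rrm2 to Rrm1 was 0.418, 0.620 and 0.616 in DN NK and 1.31, 1.501 and 1.40 in cNK, so Rrm2 was the lower of the pair in every DN NK library and the higher in every cNK library. Rpa1 to Rpa2 was 0.653, 0.724 and 0.684 against 1.19, 1.59 and 1.27, which likewise crosses equality. Mcm6 to Mcm4 was 0.621, 0.620 and 0.607 against 0.903, 1.04 and 0.965. The means of that ratio were 0.616 ± 0.00780 in DN NK and 0.968 ± 0.0670 in cNK (SD, n = 3 each). Cdt1 to Gmnn, the transcript of the protein geminin that inhibits Cdt1, was 4.65, 3.80 and 3.56 in DN NK and 2.16, 1.83 and 1.73 in cNK. Rfc2 to Rfc1 was 1.27 ± 0.0773 against 1.91 ± 0.138, Pole2 to Pole 0.695 ± 0.0938 against 1.009 ± 0.111 and Prim1 to Pola2 0.367 ± 0.0549 against 0.553 ± 0.0272 (SD, n = 3 each). Rpa3 to Rpa2 was 0.533 ± 0.0417 against 0.885 ± 0.118 and Mcm5 to Mcm4 0.456 ± 0.00679 against 0.588 ± 0.0185.

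**Figure D3:**
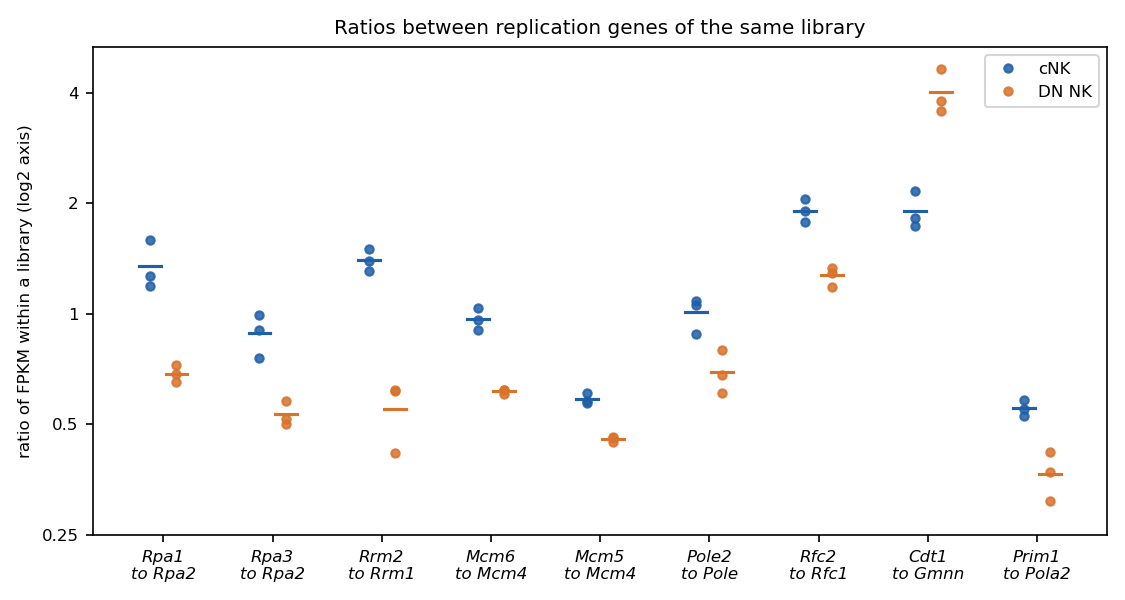
Ratio of the FPKM of paired genes within each library on a log2 axis, with 1 point per library and a bar at the group mean, cNK in blue and DN NK in orange. In all 9 pairs, chosen after their values were seen, the 3 DN NK points lie apart from the 3 cNK points, above them for Cdt1 to Gmnn and below them for the other pairs.

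Genes of the same pathways outside the members were called in both directions. Of 82 tested genes in 6 further lists, 32 were lower in DN NK (39%, beside 30.9% of all tested rows), 25 higher (30.5%, beside 30.8%) and 25 did not pass, with a median log2 fold change of -0.035. Origin recognition and firing (16 tested) had 4 lower (25%) and 5 higher (31.2%), no more than about the shares of all tested rows. Orc1, the large subunit of the origin recognition complex, was 3.37 ± 0.109 FPKM in DN NK and 0.928 ± 0.0535 FPKM in cNK (SD, n = 3 each), 3.77-fold higher, with a log2 fold change of 1.91 (SE 0.10, edgeR adjusted p = 2.14e-06). It was under 1 FPKM in every cNK library and was tested only because DN NK was higher. Orc6, another subunit, rose from 9.77 ± 0.936 to 15.2 ± 1.25 FPKM (log2 fold change 0.69) and the helicase Recql4 by 0.82, whereas Orc5 fell from 5.24 ± 0.208 to 2.43 ± 0.139 FPKM (log2 fold change -1.05). Cdc7, the kinase that fires origins, and Gmnn were lower by smaller amounts (-0.41 and -0.28). Both calls were weak. That of Cdc7 was lost without any single library but DN NK replicate 2, and that of Gmnn without any single library but DN NK replicate 3. Fork protection and S phase checkpoint genes (12 tested) had 5 lower (41.7%), with Tipin at -0.90, Clspn at -0.79 and Chtf8 at -0.73. In that list 3 were higher (25%), the checkpoint genes Atrip at 0.90 and Atr at 0.24 and the clamp unloader Atad5 at 0.77. Atrip, too, reached 1 FPKM in DN NK libraries only; without it and Orc1 the 6 lists have 80 tested genes, 32 lower and 23 higher. Other replisome, nuclease and topoisomerase genes (9 tested) had 5 lower (55.6%) and 3 higher (33.3%). Of the topoisomerases, Top2a fell from 14.7 ± 0.420 to 7.07 ± 0.393 FPKM (log2 fold change -0.99), and Top1 rose from 9.38 ± 0.590 to 20.2 ± 0.152 FPKM (1.17), and Top2b did not pass (0.10, edgeR adjusted p = 0.0849). Rnaseh2a (-0.66) and Pole4 (-0.49) were lower, and Pole3 (0.32) and Pold4 (0.22) higher, the last a call that was lost without cNK replicate 2 or 3 or DN NK replicate 1 or 2.

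The nucleotide lists differed from each other in their counts. Of all tested rows, 30.9% were lower and 30.8% higher. Of 14 tested genes of deoxynucleotide supply other than the members, 9 were lower (64.3%) and 1 higher (7.14%), with a median log2 fold change of -0.46. Samhd1, which breaks deoxynucleotides down, was 8.62 ± 0.713 FPKM in DN NK and 21.8 ± 1.09 FPKM in cNK (log2 fold change -1.27, SE 0.06, edgeR adjusted p = 1.20e-06). Rrm2b, the p53-induced alternative to Rrm2, was also lower, at 2.33 ± 0.0921 and 4.49 ± 0.469 FPKM (-0.88), as was the kinase Cmpk1 (-0.76). Of 22 tested genes of de novo purine and pyrimidine synthesis, 6 were lower (27.3%, near the share of all tested rows) and 10 higher (45.5%). Their median was 0.082. Mthfd2, the mitochondrial folate enzyme, rose from 1.69 ± 0.144 to 5.39 ± 0.497 FPKM (log2 fold change 1.73, SE 0.11, edgeR adjusted p = 4.65e-06). Ctps, the CTP synthase, rose by 1.22 and Impdh2, the rate-limiting enzyme of guanine nucleotide synthesis, by 0.65, while Adssl1 (-0.92), Prps2 (-0.79) and Paics (-0.52) were lower. Replication-coupled histone chaperones (9 tested) had 3 lower and 3 higher (33.3% each), near the shares of all tested rows. Asf1b, which hands histones to CAF-1, fell from 8.24 ± 0.474 to 3.18 ± 0.552 FPKM (-1.31), with Tonsl at -0.34 and Ssrp1 at -0.22. Nasp (0.44), Supt16 (0.34) and Cabin1 (0.15) were higher, and the call of Cabin1 was lost without any single library but cNK replicate 1. Supt16 and Ssrp1 encode the partners of the FACT complex.

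Mitosis genes are given beside these changes. The 19 that were tested were each lower in DN NK, 17 of them by at least 1.5-fold, with a median log2 fold change of -1.26 and a range from -1.98 (Ccna2) to -0.43 (Cdc20). Ccnb1, Cdk1 and Hmmr reached 1 FPKM in cNK libraries only and so could be tested only because they were higher there; of the other 16, each was lower, 14 of them by at least 1.5-fold. The summed FPKM of the 20 listed mitosis genes, with Cenpf that was not tested, was 85.3, 93.9 and 87.1 in cNK and 35.5, 38.1 and 38.8 in DN NK. Mki67, the proliferation marker, was 16.6 ± 0.631 FPKM in cNK and 7.996 ± 0.464 FPKM in DN NK (SD, n = 3 each). Ccnb2 (-1.96) and Ube2c (-1.64) followed Ccna2. The difference between the replication and the mitosis genes was not tested, and both lists were chosen with earlier results of these data known. Of 13 tested E2F factors, pocket proteins and partners, 5 were lower, 3 higher and 5 did not pass, so that 61.5% were called, as against 61.7% of all tested rows. E2f2, an activating factor, fell from 5.99 ± 0.469 to 1.499 ± 0.152 FPKM (log2 fold change -1.94, SE 0.10, edgeR adjusted p = 1.502e-06), E2f8 by 1.41 and the cyclin gene Ccne1 by 1.09 on the log2 scale. E2f8 was tested only through its cNK libraries, being under 1 FPKM in DN NK. Cdk2, the kinase partner of E type cyclins, rose from 1.93 ± 0.417 to 4.62 ± 0.238 FPKM (1.32), and E2f3 (0.50) and Ccne2 (0.46) were higher. For reference, the NK receptor gene Ncr1 had a log2 fold change of -0.88.

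**Figure D4:**
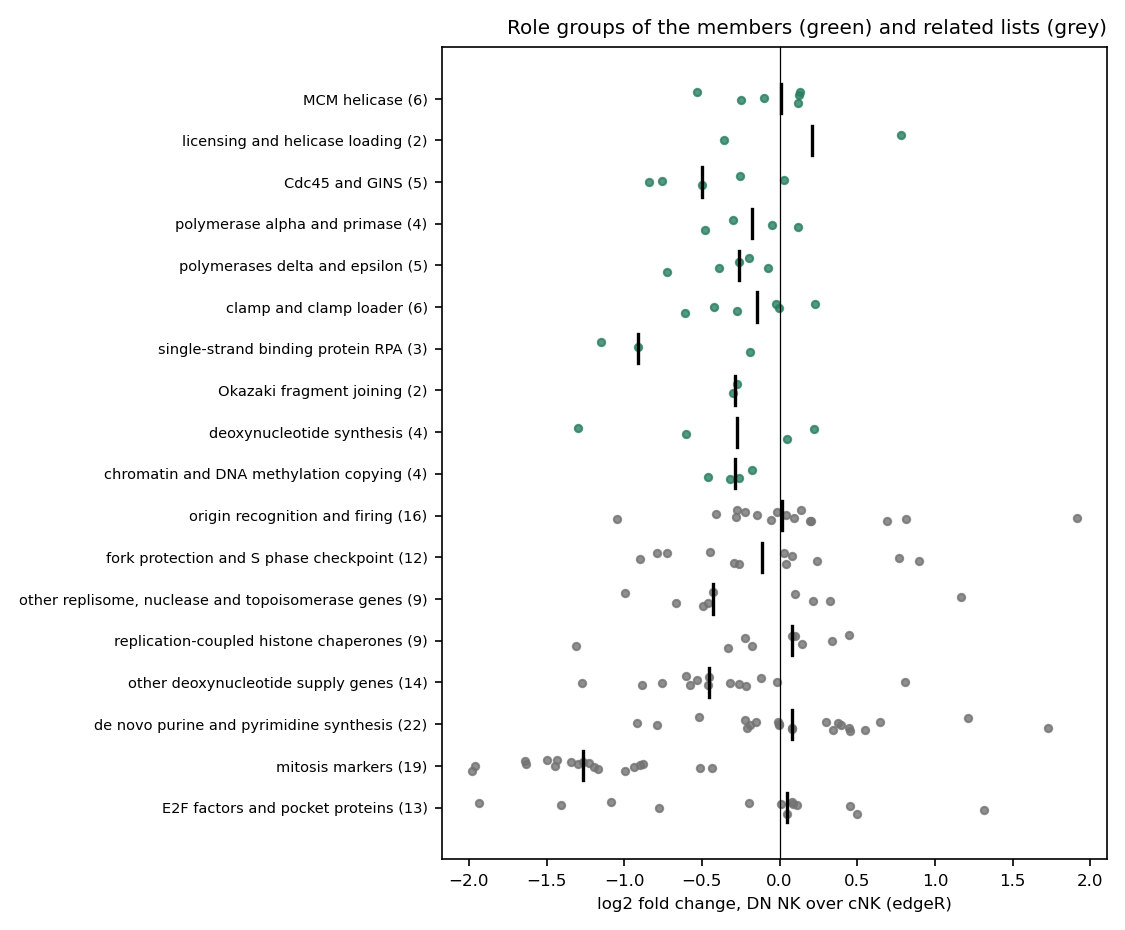
Log2 fold change (DN NK over cNK, edgeR) of each tested gene, 1 point per gene with random vertical spread, for the 10 role groups of the members in green and related lists in grey; black bars are medians and the number tested stands after each name. The bars of the role groups run from 0.21 for licensing to -0.91 for RPA, and the mitosis bar lies at -1.26.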

How the data were processed

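Total RNA was extracted with Trizol and poly(A) libraries were made with an unstranded TruSeq RNA v2 kit, then read as pairs, per the labels' protocols. HISAT, StringTie, edgeR and GRCm38 (mm10) stand, without versions, in the submitters' processing notes. Each row of the deposited table has an FPKM value and a count for each library, per the file headers. The deposited counts are whole numbers that follow FPKM times transcript length, and were treated as estimated counts made by the authors, about 3.77 per read pair. Counting of overlapping genes is not given in the sources used here. Of 27763 rows, 27695 matched GENCODE M21.

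Rows at 1 FPKM or more in 3 or more libraries (11690, 99.3% of counts) were fitted with edgeR 4.0.16 in R 4.3.3 (quasi-likelihood, robust, TMM factors 0.972 to 1.03, group as the only term, 2-sided). The biological coefficient of variation was 13.5%. SE is the log2 fold change over the square root of F, and intervals are 95%, covering the spread between libraries. FPKM means ± SD are of the deposited values. Because TMM rescales libraries, fold changes differ slightly from ratios of FPKM means. Members held 303 to 25611 estimated counts per library, about 80.4 to 6793 read pairs. The fit was also run on simulated counts with known changes. Those had less spread and fewer changed rows than these data, so that run does not test the calls here. Named genes were all members, up to 3 genes per direction and further list, Mki67 and Ncr1, and markers by level; some genes that this rule takes are not reported here. Genes sharing exons with members, Top2b, Ccnb1, Cdk1, Hmmr, Cdc20 and Cenpf were named after their values were seen. The members and lists were chosen with earlier results of these data known. Alternatives were other scaling, filters, DESeq2 1.42.0, limma 3.58.1 on log2 FPKM, read pair units, a replicate block and leaving out each library. No set test was run.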

Additional observations from a re-analysis of the deposited data

How the results depend on the processing

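Of the 25 members past the threshold, 20 kept their call in each of the 16 alternatives that tested them, and 5 lost it in at least 1 (Cdc6, Prim2, Rfc4, Rpa2 and Uhrf1). Of the others, 7 gained a call in at least 1 (Mcm2, Mcm4, Mcm7, Gins1, Pole, Tk1 and Chaf1a). No called member changed direction. With median-ratio factors or DESeq2, 4 members were higher. Upper quartile factors gave 26 members lower, beside 37.4% of all rows, and both limma fits gave 26, beside 35.1% and 34.9%. No filter and edgeR's default filter each gave 27 members lower, beside 16.0% and 25.3% of all rows. A mean of at least 5 FPKM left 26 members, with 15 lower, and 4614 rows past the threshold in all, because fewer rows were tested; of the further lists 16 genes were then higher, and 4 mitosis genes lower. Upper quartile scaling moved the median log2 fold change of all rows to -0.10 and that of the MCM subunits to -0.076, polymerase alpha and primase to -0.26, delta and epsilon to -0.35, the clamp group to -0.23, RPA to -0.996 and the chromatin group to -0.37.

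Leaving out 1 library at a time gave 19 to 22 members lower, 2 to 3 higher, 7 to 10 past 1.5-fold and 6597 to 7044 rows past the threshold. Of the 45 genes outside the members that the naming rule takes, 40 kept their call throughout; Cdc7, Gmnn, Atr, Pold4 and Cabin1 did not. The signs that turned belonged to 4 members that were not called. Gins2 was -0.057 with upper quartile factors, -0.035 with no filter, -0.028 with edgeR's default filter and -0.013 and -0.018 with limma at pseudocounts of 1 and 0.1, and ran from -0.22 to 0.41 when 1 library was left out. Rrm1 was -0.034 with upper quartile factors, -0.014 with no filter, -0.0054 with the default filter and -0.0091 and -0.010 in the limma fits. Rfc3 was 0.0052 with median-ratio factors, 0.0051 with DESeq2 and 0.0018 with the replicate block, and ran from -0.10 to 0.071 when 1 library was left out. Rfc1 then ran from -0.062 to 0.027. The causes were not tested.

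Whether replicate numbers in the labels pair the libraries was not settled. Correlations of same-numbered deviations were 0.05, 0.04 and 0.16, and those of differently numbered ones ran from -0.098 to 0.056. Not every library correlated best with its own number, and 3 libraries per group are too few to decide. With the number as a block, 21 members were lower and 2 higher, 9 passed 1.5-fold and 7222 rows passed; Cdc6 (edgeR adjusted p = 0.0534), Uhrf1 (0.0507) and, outside the members, Gmnn (0.0510) lost their calls.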
